A study of Mus musculus with 40 samples.

Results

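Follicular (FO) B cells that had met antigen for 1 day in the mouse without Ikaros were set against naive FO B cells that still had an intact Ikzf1 allele. The comparison was chosen by the labels' genotype and treatment within 1 library batch, the libraries whose numbers begin with 57, and it used 8 of the 40 samples of the series, all RNA-seq. Every mouse was C57BL/6 and carried the MD4 BCR transgene, which gives its B cells a receptor (BCR) for hen egg lysozyme (HEL). The 5 libraries of HEL cells without Ikaros came from MD4 mice that were Ikzf1(fl/fl) with Cd23-cre and had received HEL intravenously 1 day earlier. A further 5 libraries came from MD4 mice that were Ikzf1(fl/fl) without Cre, also 1 day after HEL, and are given beside the others as HEL cells with intact Ikaros. The 3 naive libraries came from MD4 mice without HEL. Of these, 2 were Ikzf1(fl/+) without Cre and the third, replicate 3, was Cd23-cre Ikzf1(fl/+), so that naive cells had at least 1 allele that Cre cannot delete. All cells were sorted by flow cytometry and analysed without culture.

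HEL without Ikaros and naive cells differ in antigen, in Cre and in Ikzf1 at once, and these cannot be told apart in this comparison. Sex differed too. By transcripts from the Y chromosome, 3 of the 5 libraries in each HEL group were female and 2 (replicates 4 and 5) were male, while the 3 naive libraries were all male. Depth was 16085832 to 25424364 recovered reads in HEL cells without Ikaros, 16899796 to 20181057 in HEL cells with intact Ikaros and 16091616 to 17187279 in naive cells. No label states that each library is from its own mouse. The p-values therefore measure only how much these libraries vary, and that variation may be partly technical.

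Ikaros is a zinc finger DNA-binding protein that acts in lymphocytes mainly within chromatin complexes such as NuRD, and it both represses and activates genes in B cell development. Cd23-cre becomes active as B cells mature in the spleen, so that earlier stages still have the protein. An MD4 B cell binds soluble HEL through its BCR, which starts kinase, calcium and NF-kB signalling. When no T cell help or innate signal follows, such cells tend towards anergy, a state of muted response to further antigen.

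Levels are TPM, read counts divided by gene length and expressed per fixed library total. These were then divided by 1 scaling factor per library and are called scaled TPM below. Differences are on the log2(scaled TPM + 1) scale, HEL cells without Ikaros minus naive cells unless another pair is named, with the standard error of the fit after ±. This scale understates the change of genes at low levels. A gene is called when the limma adjusted p was under 0.05. Values after ± beside a scaled TPM are standard deviations.

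Ikzf1 was measured first as a check of the labels. Its level was 72.5, 71.2, 71.6, 63.7 and 80.4 scaled TPM in HEL cells without Ikaros, against 130, 196 and 126 in naive cells. Every library without Ikaros was below every naive library, and the difference was -1.03 ± 0.13 (adjusted p = 0.000109). With Ikaros intact, HEL cells had 217, 199, 251, 211 and 205, above all naive libraries, a difference from naive cells of 0.54 ± 0.14 (adjusted p = 0.0111). Between the HEL groups the difference was -1.58 ± 0.07 (adjusted p = 1.28e-08). The values are per whole gene, and reads of the deleted part were not separated from the rest. Ikzf3, which encodes the close relative Aiolos, was not called at -0.11 ± 0.09 (adjusted p = 0.312), though it was called lower on TPM as deposited (adjusted p = 0.0104), with means of 279 ± 30.2 scaled TPM in HEL cells without Ikaros and 300 ± 17.5 in naive cells (n = 5 and 3).

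Of 13 markers of follicular B cells, all tested, 1 (Cd79b) was called higher and 4 (Fcer2a, Cr2, Cxcr5 and Tnfrsf13c) lower, with a median of -0.11, while without the scaling factors none was higher and 10 were lower. Cd79a, a signalling subunit of the BCR, had 5793 to 6527 scaled TPM in HEL cells without Ikaros and 6429 to 7560 in naive cells, and Cd22 had 668 to 707 in HEL cells without Ikaros and 621 to 653 in naive cells. Neither was called with the scaling factors, and both were called lower without them. Fcer2a, the Cd23 gene whose regulatory sequence drives the Cre, fell by 0.49 ± 0.17 (adjusted p = 0.0363), with 567 to 996 in HEL cells without Ikaros and 1012 to 1409 in naive cells. That call was lost under 7 alternatives, among them the male libraries alone.

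Over all genes the difference was broad. Of 10544 genes tested, 5788 were called (54.9%), 2998 higher (28.4%) and 2790 lower (26.5%) in HEL cells without Ikaros. The shares of 28.4% and 26.5% are the background for the counts in gene lists. Changes of at least 2-fold were 718 (6.81%), of which 499 were higher (4.73%) and 219 lower (2.08%). Library values did not overlap between the groups for 5563 genes (52.8%). Without the scaling factors, on TPM as deposited, the median of all genes moved to -0.23 and the calls split into 1619 higher and 5142 lower (23.9% higher, against 51.8% with scaling), so directions below are relative to the median gene. The comparison of HEL cells with intact Ikaros against the same 3 naive libraries gave 4196 calls among 10420 genes (40.3%), 2140 higher (20.5%) and 2056 lower (19.7%), and 311 of at least 2-fold (2.98%), 185 higher (1.78%) and 126 lower (1.21%). HEL cells without Ikaros against HEL cells with intact Ikaros gave 3473 calls among 10282 genes (33.8%), 1793 higher (17.4%) and 1680 lower (16.3%), and 359 of at least 2-fold (3.49%), 267 higher (2.6%) and 92 lower (0.895%). Without the scaling factors these comparisons gave 1036 higher and 3979 lower with intact Ikaros, and 1321 higher and 2469 lower between the HEL groups. The first pair of comparisons shares the naive libraries, and the last shares libraries with both, so their results are given side by side only.

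The most raised genes were led by Ifitm2, which encodes an interferon-induced membrane protein that restricts virus entry. Ifitm2 had 115, 93.6, 66.2, 76.3 and 92.9 scaled TPM in HEL cells without Ikaros, against 0.655, 1.44 and 2.03 in naive cells. The gene was close to silent in every naive library and well expressed in every library without Ikaros. Its difference was 5.26 ± 0.20 (adjusted p = 1.1e-07), and the ratio of means was 64.5. In HEL cells with intact Ikaros the level was 2.14 to 3.62, with a difference from naive cells of 0.75 ± 0.21 (adjusted p = 0.0171).

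Rgs10, a regulator that shortens signalling through G proteins, had 227, 191, 189, 149 and 169 scaled TPM in HEL cells without Ikaros, against 6.22, 3.56 and 4 in naive cells (5.07 ± 0.16, adjusted p = 2.77e-08). It was 40.3-fold higher by means and the groups were far apart. The range was 29.3 to 81.9 in HEL cells with intact Ikaros, where this gene also rose (3.40 ± 0.29 against naive cells, adjusted p = 3.18e-05). Slamf9, a receptor of the SLAM family, had 261, 206, 241, 188 and 223 scaled TPM in HEL cells without Ikaros, against 18.7, 12 and 10.8 in naive cells. It rose by 3.95 ± 0.16 (adjusted p = 1.35e-07). In HEL cells with intact Ikaros, at 14.3 to 20.9, it was not called against naive cells (0.27 ± 0.17, adjusted p = 0.231).

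Several of the other most raised genes encode proteins better known from myeloid cells. Ccr1, a receptor for Ccl3 and Ccl5, had 15.8 to 30.8 scaled TPM in HEL cells without Ikaros and 0.375 to 0.943 in naive cells (3.87 ± 0.21, adjusted p = 6.83e-07). It was also called higher in HEL cells with intact Ikaros, by 1.69. Ly6c2, a small surface protein anchored by lipid, had 158 to 269 in HEL cells without Ikaros and 10.9 to 16.3 in naive cells (3.81 ± 0.18). With intact Ikaros, at 14.2 to 124 in HEL cells, this gene was called higher too, by 2.05. Aif1, an actin-binding protein used to mark macrophages and microglia, had 45.7, 52.6, 39.4, 29.5 and 41.1 in HEL cells without Ikaros, against 1.76, 3.44 and 2.91 in naive cells (3.53 ± 0.19, adjusted p = 5.25e-07). All 5 libraries without Ikaros were above the naive ones, while HEL cells with intact Ikaros had 0.707 to 2.79, a difference of -0.26 ± 0.27 that was not called (adjusted p = 0.47).

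Tmem176a and Tmem176b, neighbouring genes for membrane channels of immune cells, moved together. Tmem176a had 260, 298, 241, 243 and 246 scaled TPM in HEL cells without Ikaros, against 29.1, 12.1 and 28.6 in naive cells (3.50 ± 0.23, adjusted p = 1.76e-06). Tmem176b had 228, 263, 214, 237 and 234 in HEL cells without Ikaros, against 34.3, 13.8 and 32.5 in naive cells (3.18 ± 0.24, adjusted p = 3.08e-06). For both genes naive replicate 2 was the lowest library. The pair had 10.9 to 17.9 and 11.2 to 20.8 in HEL cells with intact Ikaros, and neither was called there against naive cells. The list of Ifitm, Tmem176 and Ms4a genes had 8 of 10 tested members higher and none lower, with a median of 1.87 against 0.00 for all genes, but the list was built after earlier results of these data and is no independent evidence. Of its 18 members 8 were too low to be tested. Ms4a6c, a tetraspanning membrane protein, was its other strong member, at 48.3 ± 3.66 scaled TPM in HEL cells without Ikaros and 8.03 ± 1.75 in naive cells (2.46 ± 0.12, adjusted p = 2.98e-07).

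Other genes among the 15 most raised were Mt1, Nrp1, Nrgn, Lck, Ifi44 and Plac8. Mt1, a metallothionein that binds zinc, varied widely, with 54.6, 37.3, 11.4, 14.9 and 18.4 scaled TPM in HEL cells without Ikaros, against 0.379, 0.371 and 1.37 in naive cells (3.87 ± 0.44, adjusted p = 4.65e-05). Nrgn, neurogranin, which binds calmodulin, had 77.5 to 99 in HEL cells without Ikaros and 6.84 to 7.94 in naive cells (3.41 ± 0.09). Plac8 had 2981 to 4105 in HEL cells without Ikaros and 350 to 471 in naive cells (3.08 ± 0.13). These 3 genes were also called higher in HEL cells with intact Ikaros against naive cells, by 1.56, 2.72 and 1.91. So were Lck, by 2.57, and Ifi44, by 1.97, while Nrp1 was too low there to be tested. Nrp1, a co-receptor for semaphorins and growth factors, had 7.35 to 16 in HEL cells without Ikaros and 0 to 0.102 in naive cells (3.58 ± 0.21). Lck, a Src family kinase known mainly from T cells, had 70.9 to 108 in HEL cells without Ikaros and 6.6 to 13.2 in naive cells (3.10 ± 0.20). The gene models of Nrp1 and Lck overlap another gene, so these values are uncertain.

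The most lowered gene was Pim1, a survival kinase induced by cytokine signals. Pim1 had 8.85, 8.87, 11, 10.6 and 8.9 scaled TPM in HEL cells without Ikaros, against 104, 111 and 119 in naive cells (-3.41 ± 0.09, adjusted p = 8.1e-09). The level was 11.6-fold lower by means, with little spread within either group. The 24.9 to 37.7 of HEL cells with intact Ikaros lay between the other groups (-1.93 ± 0.12 against naive cells, adjusted p = 6.57e-06). Cacna1i, a T-type calcium channel, had 4.7, 6.1, 7.35, 7.89 and 4.07 in HEL cells without Ikaros, against 51.5, 71 and 65.3 in naive cells (-3.20 ± 0.18, adjusted p = 8.26e-07). No library came near those of the other group.

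Dusp5, a nuclear phosphatase that switches off ERK, had 2.28, 1.85, 2.48, 3.95 and 2.92 scaled TPM in HEL cells without Ikaros, against 16.7, 29.6 and 29.8 in naive cells (-2.81 ± 0.21, adjusted p = 3.18e-06). Tyrobp, the ITAM adaptor DAP12, had 18.6, 30.9, 26.4, 25.7 and 17.7 in HEL cells without Ikaros, against 163, 231 and 108 in naive cells (-2.72 ± 0.24, adjusted p = 8.23e-06). In both genes the groups were separate although naive cells varied. Stac2 (-3.05), Ccdc88b (-2.86), Fcgrt (-2.43), which encodes the neonatal Fc receptor, Mapk11 (-2.28), a p38 kinase, and Emid1 (-2.28) also fell. Lta, the cytokine lymphotoxin alpha, fell by 2.56 ± 0.18 with 7.75 to 16.2 in HEL cells without Ikaros and 64.4 to 81.4 in naive cells, and its model overlaps another gene. Dmwd, Ngfr, H1fx and Cpne5 completed the 15 with Apoe. These genes other than Apoe were near silent in HEL cells without Ikaros (highest values of 0.211, 0.857, 0.211 and 0.491 scaled TPM). All of the 15 except Apoe were also called lower in HEL cells with intact Ikaros against naive cells. Their differences there ran from -2.26 (Ccdc88b) to -0.52 (Mapk11).

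**Figure D1:**
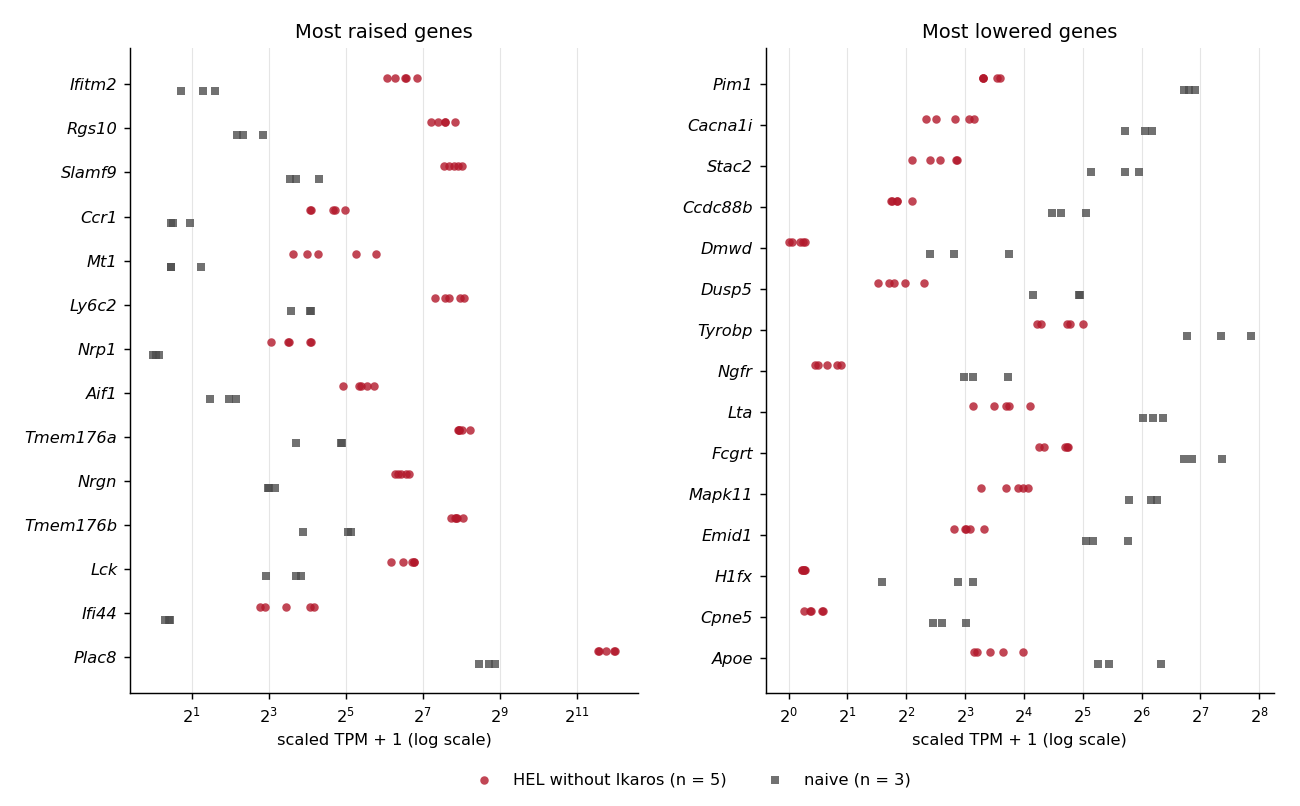
Scaled TPM + 1 (log axis) of 14 of the 15 most raised and the 15 most lowered genes, with 1 point per library, for HEL cells without Ikaros (circles, n = 5) and naive cells (squares, n = 3). In none of the 29 genes do the libraries of the groups overlap, which was a condition for being named, and Ifitm2 and Pim1 head the panels.

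Against naive cells, 1636 genes were called higher in both HEL groups and 1532 lower in both. These comparisons share the naive libraries, so agreement in direction is partly built in. Of the genes called without Ikaros, 1136 of the higher and 1227 of the lower were not called with intact Ikaros. Opposite directions in the HEL groups were called for 117 genes. Apoe, the lipid carrier apolipoprotein E, was among those with the largest differences. It had 7.89, 9.75, 14.9, 11.5 and 8.17 scaled TPM in HEL cells without Ikaros, 237, 252, 182, 170 and 150 in HEL cells with intact Ikaros, and 42.4, 79.7 and 37.2 in naive cells. The 3 groups did not overlap, with naive cells in the middle. The differences were -2.19 ± 0.25 for HEL without Ikaros (adjusted p = 4.52e-05) and 1.93 ± 0.24 for HEL with intact Ikaros (adjusted p = 0.00029), each against naive cells, and the HEL groups differed from each other by -4.13 ± 0.17 (adjusted p = 5.84e-09).

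Dkkl1, a secreted protein related to Wnt inhibitors of the Dickkopf family, went the other way. It had 136, 119, 93.8, 91.1 and 104 scaled TPM in HEL cells without Ikaros, 5.33 to 9.74 in HEL cells with intact Ikaros and 24.8, 10.8 and 14.8 in naive cells, again with no overlap. It was called higher without Ikaros (2.69 ± 0.22, adjusted p = 5.35e-06) and lower with intact Ikaros (-0.96 ± 0.23, adjusted p = 0.00991). Eng, endoglin, a co-receptor for TGF-beta ligands whose model overlaps another gene, had 24.4 to 34.5 in HEL cells without Ikaros, 0.346 to 0.835 in HEL cells with intact Ikaros and 2.05 to 8.2 in naive cells (2.24 ± 0.30 and -1.98 ± 0.32). Naive replicate 2 was the lowest of its group in both genes. Sirpa, the receptor for Cd47, had 28.7 to 46.6 in HEL cells without Ikaros, 3.81 to 4.54 in HEL cells with intact Ikaros and 8.23 to 11.8 in naive cells (1.86 ± 0.15 and -0.99 ± 0.11). The zinc finger gene Zfp467 had the same order of groups (1.99 ± 0.13 and -0.58 ± 0.14). H1f0, a linker histone of resting cells, had 11.6 to 22.5 in HEL cells without Ikaros and 5.52 to 13 in naive cells, which overlap, and 1.04 to 2.1 in HEL cells with intact Ikaros. Its call against naive cells (0.86 ± 0.25, adjusted p = 0.0143) was lost without naive replicate 2 (adjusted p = 0.0649) or naive replicate 3 (adjusted p = 0.0732).

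**Figure D2:**
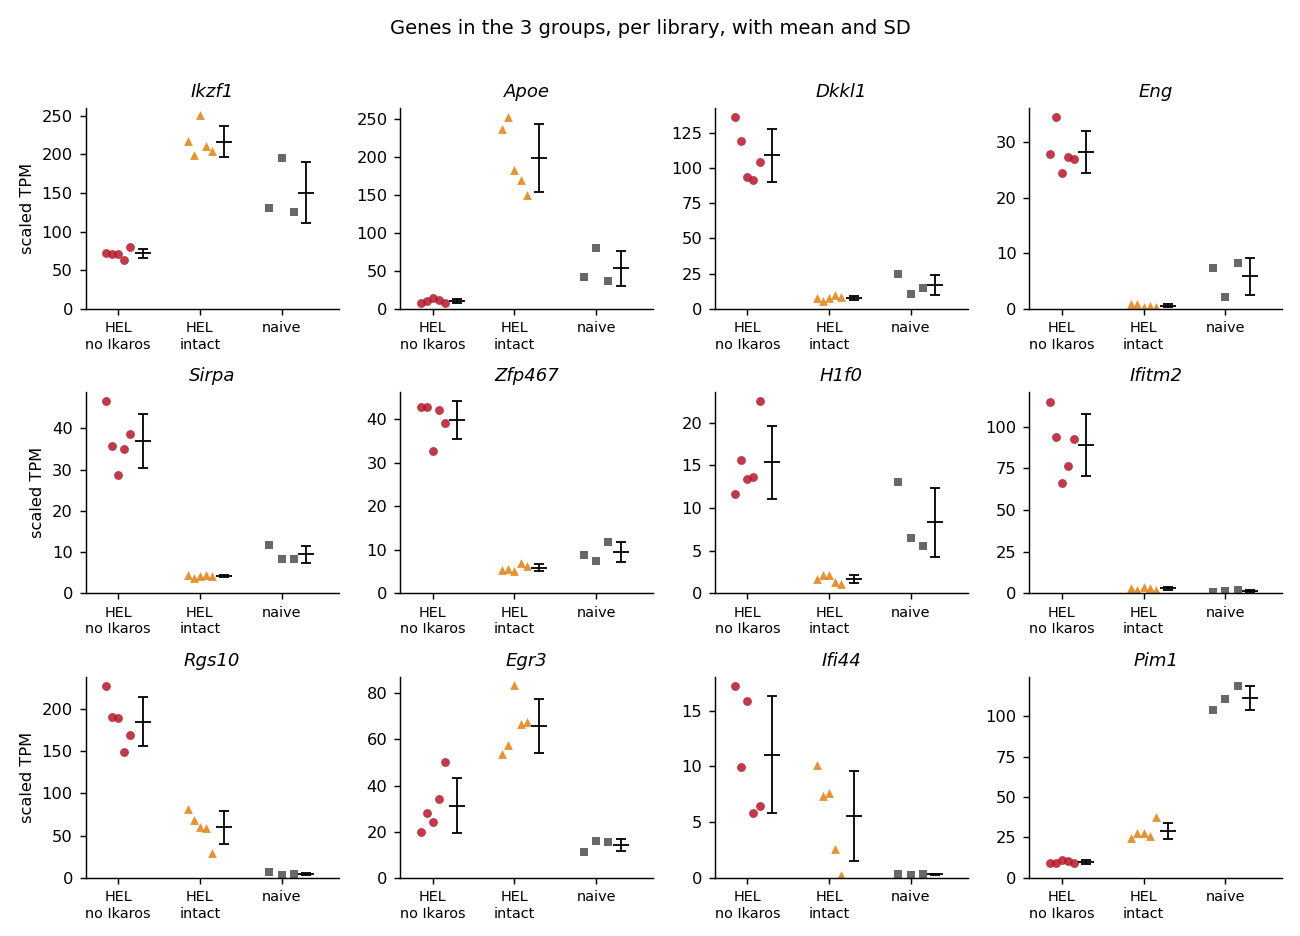
Scaled TPM of 12 genes in HEL cells without Ikaros (n = 5), HEL cells with intact Ikaros (n = 5) and naive cells (n = 3), with 1 point per library and the mean and SD beside them, each panel on its own linear axis from 0. Apoe is lowest and Dkkl1, Eng, Sirpa and Zfp467 are highest in HEL cells without Ikaros, with naive cells between the HEL groups.

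Genes of the antigen response were next described by their place in it. Immediate early genes are switched on within minutes of BCR signalling, and 1 day later they were mixed: of 17 tested, 5 were called higher and 7 lower (4 and 9 without the scaling factors), with a median of -0.31. Egr3, a transcription factor induced by BCR and calcium signals, had 19.7, 27.9, 24.3, 34.3 and 50.3 scaled TPM in HEL cells without Ikaros, against 11.2, 16 and 15.5 in naive cells (1.03 ± 0.25, adjusted p = 0.00512). All 5 libraries were above the naive ones, yet below HEL cells with intact Ikaros, which had 53.6 to 83.6. Nab2, a co-repressor of Egr proteins, had the same order, with means of 24.9 ± 7.31 in HEL cells without Ikaros, 53.1 ± 14 in HEL cells with intact Ikaros and 9.53 ± 1.98 in naive cells, although its model overlaps another gene. Egr3 and Nab2 were both called lower in HEL cells without Ikaros than in HEL cells with intact Ikaros, by -1.10 ± 0.20 and -1.06 ± 0.19. In HEL cells with intact Ikaros against naive cells, 6 of 18 immediate early genes were called higher and 3 lower. Between the HEL groups 12 of 18 were called lower and 1 higher without Ikaros.

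Cd69, an early activation antigen that holds lymphocytes in tissue, fell below its naive level. It had 11.8, 9.71, 16.6, 12.2 and 13.1 scaled TPM in HEL cells without Ikaros, against 31, 36.1 and 36.2 in naive cells (-1.39 ± 0.13, adjusted p = 1.61e-05). The groups were separate, and HEL cells with intact Ikaros, at 21 to 35.4, were not called against naive cells. Junb, an AP-1 subunit, fell by 0.86 ± 0.09, and Dusp1, a MAP kinase phosphatase, by 0.82 ± 0.22. The size of the Dusp1 fall rests partly on naive replicate 3, at 8.47 against 3.44 and 3.93 in the others. Without that library the difference was -0.48 and was still called.

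Of 11 tested inhibitors that feed back on ERK signalling, 5 fell and 1 rose, with a median of -0.44. Besides Dusp5, the phosphatase genes Dusp3 (5.99 ± 0.93 scaled TPM in HEL cells without Ikaros and 20.7 ± 2.48 in naive cells, -1.64 ± 0.12) and Dusp2 (65.4 ± 9.3 in HEL cells without Ikaros and 154 ± 23.7 in naive cells, -1.22 ± 0.13) were lower. Spry2, a Sprouty inhibitor of the pathway, was the member that rose, with 1.87 to 3.1 in HEL cells without Ikaros and 0.0481 to 0.246 in naive cells (1.63 ± 0.14, adjusted p = 8.67e-06). It stayed too low to be tested in HEL cells with intact Ikaros against naive cells.

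In the BCR signalling chain, 12 of 33 members rose and 8 fell, with a median of 0.05, while without the scaling factors 2 rose and 16 fell. Vav3, a guanine exchange factor downstream of Syk, changed most, at 17.2 ± 2.55 scaled TPM in HEL cells without Ikaros and 4.29 ± 1.28 in naive cells (1.80 ± 0.16, adjusted p = 9.02e-06). Bcl10, an adaptor on the way to NF-kB, rose by 0.53 ± 0.11. Prkcb, the protein kinase C that acts before that adaptor, had 103 to 108 in HEL cells without Ikaros and 149 to 169 in naive cells (-0.58 ± 0.05). Nfatc2, a calcium-dependent transcription factor, fell by 0.96 ± 0.15, and Cr2, the complement receptor Cd21, by 0.81 ± 0.11.

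Inhibitory receptors and phosphatases also moved both ways, with 8 of 20 higher and 5 lower, or 6 and 10 without the scaling factors. Pirb, a receptor for MHC class I, had 5.44, 5.87, 6.61, 5.44 and 4.11 scaled TPM in HEL cells without Ikaros, against 17, 21 and 14 in naive cells (-1.49 ± 0.14, adjusted p = 1.63e-05). Dok3, an adaptor that recruits the phosphatase Ship1, had 137, 141, 150, 156 and 129 in HEL cells without Ikaros, against 271, 332 and 279 in naive cells (-1.04 ± 0.08, adjusted p = 5.27e-06). Neither gene overlapped between the groups. Dok3 was among the genes called in the opposite direction in HEL cells with intact Ikaros, at 335 to 384 (0.28 ± 0.07 against naive cells, adjusted p = 0.0145). Fcgr2b, the inhibitory Fc receptor, rose by 0.59 ± 0.09 and Ptpn22, a phosphatase of Src kinases, by 1.36 ± 0.23.

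Genes linked to anergy had 14 of 24 tested members higher and 4 lower, a median of 0.74 beside 0.00 for all genes, and 10 members at least 2-fold higher. Ikzf1, the gene deleted by design, is among the 4 lower. The list was chosen with earlier results of these data known, so its counts are no independent evidence. With a minimum of 5 scaled TPM for testing, 9 of 19 members were called higher and the median was 0.14, so the median above rests on members at low levels. Lag3, a receptor for MHC class II, had 15.5, 8.32, 8.85, 7.48 and 9.19 scaled TPM in HEL cells without Ikaros, against 0.256, 0.451 and 0.106 in naive cells (3.06 ± 0.20, adjusted p = 1.51e-06). Its level of 1.39 to 4.92 in HEL cells with intact Ikaros lay between (1.78 ± 0.26 against naive cells). Pcp4, a calmodulin-binding peptide, had 19.1, 36.5, 17.9, 23.7 and 26.1 in HEL cells without Ikaros, against 3.68, 3.29 and 2.32 in naive cells (2.62 ± 0.20, adjusted p = 4.29e-06). It had 1.45 to 3.36 in HEL cells with intact Ikaros and was not called there. Ndrg1, associated with T cell anergy, had 8.81 ± 2.65 in HEL cells without Ikaros and 0.806 ± 0.277 in naive cells (2.42 ± 0.19), and was not called in HEL cells with intact Ikaros either (0.35 ± 0.19). The list had 13 of 23 higher and 1 lower in HEL cells with intact Ikaros against naive cells. Between the HEL groups 7 of 25 were higher and 8 lower, Ikzf1 again among the lower.

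NF-kB subunits and targets split into 9 higher and 7 lower of 23, beside 28.4% and 26.5% of all genes, with a median of 0.03. Without the scaling factors they were 6 and 9. Bcl2a1b, an anti-apoptotic target that shares reads with near-identical copies, had 36.7 ± 6.58 scaled TPM in HEL cells without Ikaros and 5.32 ± 1.92 in naive cells (2.60 ± 0.19). Traf1, an adaptor of TNF receptors, rose by 0.76 ± 0.08. Gadd45b, a stress-response target, had 16.4, 16.4, 16.3, 19.3 and 13.1 in HEL cells without Ikaros, against 48.2, 54.4 and 46 in naive cells (-1.55 ± 0.10, adjusted p = 1.95e-06). The groups were far apart, and HEL cells with intact Ikaros, at 44.3 to 58.6, were not called against naive cells (0.08 ± 0.09).

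Genes of Toll-like receptor signalling, which include adaptors and kinases beside the receptors, had 8 of 27 higher and 7 lower, with a median of 0.01. These shares are near those of all genes (28.4% and 26.5%), and without the scaling factors 6 were higher and 13 lower. Tlr2, the receptor for bacterial lipopeptides, had 24.5 to 26.5 scaled TPM in HEL cells without Ikaros and 9.71 to 12.8 in naive cells (1.16 ± 0.09, adjusted p = 3.07e-06), and 8.94 to 12.4 in HEL cells with intact Ikaros. Ticam1, the adaptor TRIF, rose by 1.09 ± 0.07 and Tlr7, a sensor of RNA, by 1.05 ± 0.13. Irak3, a kinase-like inhibitor of the pathway, fell by 0.93 ± 0.06.

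Interferon-stimulated genes, the antiviral genes switched on by type I or type II interferon, were higher as a group. Of 32 tested, 28 rose, none fell and 4 (Irf7, Rsad2, Ddx58 and Ifi35) were not called, with a median of 1.21 and 21 members at least 2-fold higher. Ifi44 had 17.2, 9.93, 15.9, 5.82 and 6.45 scaled TPM in HEL cells without Ikaros, against 0.353, 0.242 and 0.328 in naive cells (3.09 ± 0.31, adjusted p = 1.86e-05). All libraries without Ikaros were well above naive, and the male replicates 4 and 5 were the lowest of them. Gbp2, an interferon-induced GTPase whose model overlaps another gene, was even, with 44.6, 51.7, 49.2, 53.2 and 48.9 in HEL cells without Ikaros, against 8.57, 8.14 and 9.08 in naive cells (2.39 ± 0.07, adjusted p = 1.59e-08).

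The oligoadenylate synthetase genes, which sense viral RNA, followed. Oasl2 had 48.3 ± 14 scaled TPM in HEL cells without Ikaros and 10.7 ± 0.98 in naive cells (2.04 ± 0.18), and Oas1a had 35.6 ± 13.4 in HEL cells without Ikaros and 8.28 ± 1.34 in naive cells (1.90 ± 0.27). Oas1a too was lowest in the male replicates 4 and 5, at 22.1 and 21.4, which were still above all naive libraries. Ifitm3, the antiviral relative of Ifitm2, had 307 ± 106 in HEL cells without Ikaros and 37.6 ± 13 in naive cells (2.99 ± 0.25). Ifi27l2a, an interferon-induced gene whose model overlaps another, had 857 to 1898 in HEL cells without Ikaros and 356 to 417 in naive cells (1.88 ± 0.23), with the same replicates lowest. With the male libraries alone, 25 of the interferon-stimulated genes were called higher, and the part of sex in their spread was not tested.

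A rise was also called in HEL cells with intact Ikaros. There 20 of 32 interferon-stimulated genes were called higher and none lower against naive cells, with a median of 1.21. Between the HEL groups 1 was called higher and none lower, with a median of -0.02. Spread was wide in HEL cells with intact Ikaros, where Ifi44 had 10.1, 7.3, 7.62, 2.59 and 0.248 scaled TPM. Replicate 5 there was within the naive range, and the male replicates 4 and 5 were again the lowest. Ifitm2, which is not on this list, differed between the HEL groups by 4.51 ± 0.15 (adjusted p = 7.97e-10).

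Promoters of raised genes were read for 2 short DNA motifs, 1 bound by interferon-activated factors and 1 by Ikaros. The interferon-stimulated response element was searched as GAAA, any 2 bases and GAAA again, and the core of Ikaros binding sites as TGGGAA, each on both strands, in the 250 bases before the start of each gene. Sequences and positions are from RefSeq on GRCm38.p6, 5′ to 3′ on the gene's strand, with matches in capitals. The search for the response element was chosen after the data were seen. Shown are promoters with a response element from the interferon-stimulated genes Gbp2 (chr3:142620413-142620662, plus strand) and Oas1a (chr5:120907526-120907775, minus strand, with overlapping matches), and from the strongly raised Ifitm2 (chr7:140955962-140956211, minus strand) and Aif1 (chr17:35176053-35176302, minus strand). They were chosen for holding a match: the windows of Ifi44, Oasl2 and Ifitm3, and of the strongly raised Rgs10, Slamf9, Plac8, Ly6c2 and Tmem176a, were read too and had none. Ly6c2 (chr15:75111972-75112221, minus strand) is shown for an Ikaros core, read here as TTCCCA on the opposite strand.
Ifitm2: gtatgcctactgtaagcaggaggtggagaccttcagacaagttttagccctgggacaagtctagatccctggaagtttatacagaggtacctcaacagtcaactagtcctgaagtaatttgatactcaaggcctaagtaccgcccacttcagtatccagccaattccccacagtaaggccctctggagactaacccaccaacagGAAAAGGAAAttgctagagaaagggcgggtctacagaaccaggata
Aif1: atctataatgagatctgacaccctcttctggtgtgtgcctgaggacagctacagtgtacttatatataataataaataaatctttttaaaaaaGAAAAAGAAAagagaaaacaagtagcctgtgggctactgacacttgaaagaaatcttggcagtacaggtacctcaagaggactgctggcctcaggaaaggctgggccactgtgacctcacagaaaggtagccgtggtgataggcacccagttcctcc
Gbp2: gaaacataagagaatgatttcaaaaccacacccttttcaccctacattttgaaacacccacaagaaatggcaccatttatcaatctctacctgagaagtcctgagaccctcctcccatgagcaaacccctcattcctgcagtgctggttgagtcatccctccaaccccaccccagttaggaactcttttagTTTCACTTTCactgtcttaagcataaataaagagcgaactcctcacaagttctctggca
Oas1a: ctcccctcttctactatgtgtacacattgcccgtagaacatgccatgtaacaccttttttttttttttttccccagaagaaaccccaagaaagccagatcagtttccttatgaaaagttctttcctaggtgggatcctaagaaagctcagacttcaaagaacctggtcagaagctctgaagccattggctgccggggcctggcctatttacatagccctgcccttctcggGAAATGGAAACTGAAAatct
Ly6c2: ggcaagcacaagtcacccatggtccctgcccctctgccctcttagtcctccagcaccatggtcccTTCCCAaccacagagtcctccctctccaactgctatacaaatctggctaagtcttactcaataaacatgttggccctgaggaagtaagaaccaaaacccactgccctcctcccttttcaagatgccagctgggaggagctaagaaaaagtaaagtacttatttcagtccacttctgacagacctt

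The response element was found in 11 of 23 tested interferon-stimulated genes with a sequence (47.8%), against 258 of 7874 of all genes tested (3.28%). Among genes called higher it was found in 4.19% of 2289, and among genes called lower in 2.74% of 2120. The Ikaros core is short and common: it was found in 24.9% of the genes called higher, 23% of those called lower and 23.1% of all genes tested. A match describes letters in this window and not a bound site. TGGGAA was missing from the Ifitm2, Aif1, Gbp2 and Oas1a windows, which were picked for a response element. Among all tested interferon-stimulated genes with a sequence, TGGGAA was found in 8 of 23 (34.8%).

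Ribosomal protein genes rose almost throughout. Of 66 genes for proteins of the cytosolic ribosome, 64 were called higher and none lower, with Rpl5 and Rpl34 not called, a median of 0.89 and 25 members at least 2-fold higher. Rps4x had 1995, 1843, 3009, 1766 and 2873 scaled TPM in HEL cells without Ikaros, against 796, 642 and 644 in naive cells (1.70 ± 0.18, adjusted p = 3.26e-05). Rps12 had 248, 232, 318, 217 and 268 in HEL cells without Ikaros, against 92.6, 72.7 and 73.5 in naive cells (1.67 ± 0.12, adjusted p = 3.03e-06). In both genes replicates 3 and 5 were the highest without Ikaros and naive replicate 1 the highest of its group, with no overlap. Rpl27a (1.66 ± 0.15), Rps6 (1.55 ± 0.17) and Rps24 (1.55 ± 0.19) were of similar size. With intact Ikaros, HEL cells had 63 of 66 higher and none lower against naive cells, with a median of 0.80. Between the HEL groups 11 of 66 were called higher, none lower, and the median was 0.08.

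These genes are short, and short genes as a whole were higher. When all genes tested were split into 5 classes of equal size by a relative length taken from the reads per TPM, the median differences were 0.13, 0.06, 0.01, -0.04 and -0.10 from the shortest to the longest class. Of the 66 ribosomal protein genes, 60 were in the shortest class, whose median without them was 0.11. In that class 801 genes were called higher and 371 lower, and in the longest class 376 higher and 728 lower. The part of length in the ribosomal protein result was not tested further.

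Genes that build ribosomes went the opposite way. Of 26 tested genes of Myc and ribosome biogenesis, 18 fell and 3 rose, with a median of -0.66. Rrp12, which exports ribosomal precursors, had 8.16, 7.67, 7.27, 7.7 and 10.1 scaled TPM in HEL cells without Ikaros, against 22.6, 23.8 and 21.1 in naive cells (-1.36 ± 0.10, adjusted p = 2.62e-06). Srm, spermidine synthase and a classic Myc target, had 22, 20.8, 19.1, 20.8 and 30.1 in HEL cells without Ikaros, against 60.5, 50.5 and 49.8 in naive cells (-1.23 ± 0.13, adjusted p = 2.96e-05). Neither overlapped, and for Srm replicate 5 was the highest without Ikaros. Rrs1 fell by 1.12 ± 0.07 and Nolc1, a nucleolar chaperone, by 0.92 ± 0.07. Npm1, nucleophosmin, was one of the 3 that rose, at 234 ± 21.7 in HEL cells without Ikaros and 84.9 ± 8.58 in naive cells (1.45 ± 0.09). Myc itself was not called. In HEL cells with intact Ikaros against naive cells, 7 of the 26 were higher and 10 lower. Between the HEL groups 22 of 26 were lower without Ikaros and 1 higher, with a median of -0.38.

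**Figure D3:**
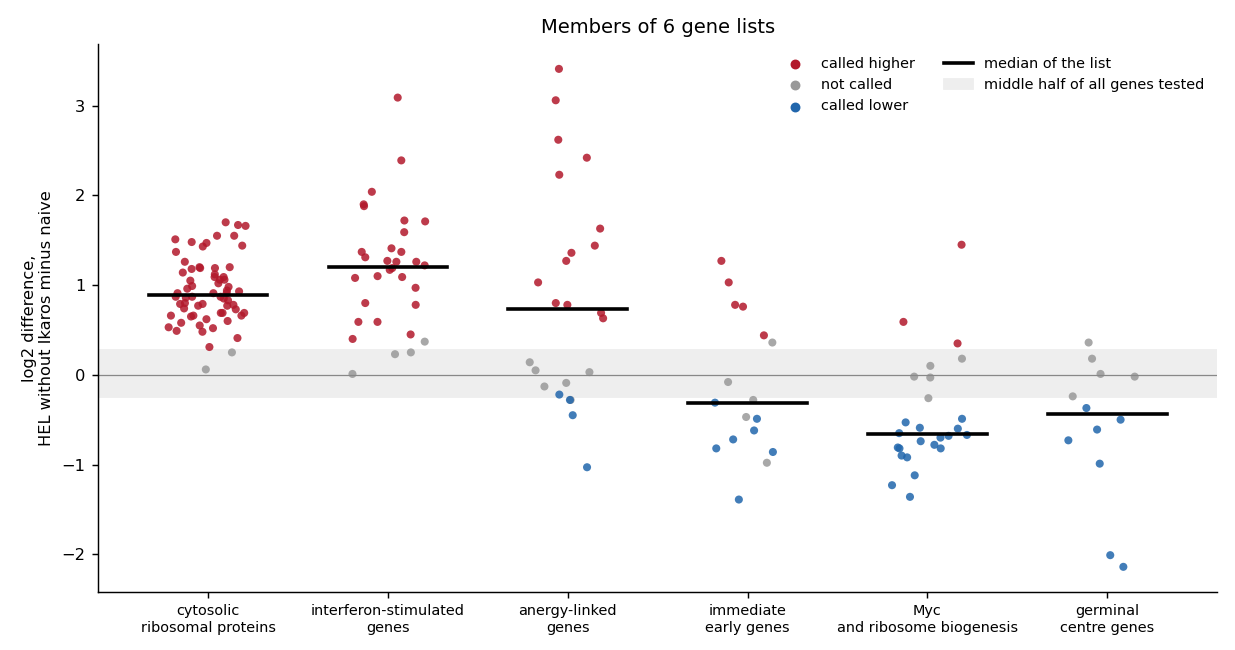
Log2 difference, HEL cells without Ikaros minus naive cells, for each tested member of 6 gene lists, coloured by call, with the list median as a bar and the middle range of all genes tested (-0.25 to 0.28) as a band. Cytosolic ribosomal proteins (median 0.89) and interferon-stimulated genes (1.21) lie above the band, and Myc and ribosome biogenesis genes (-0.66) lie mostly below it.

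Genes for amino acid supply were also lower more often than higher. Among amino acid transporters and serine synthesis genes, 9 of 17 fell and 2 rose, and among aminoacyl-tRNA synthetases 9 of 20 fell and 2 rose (16 and 1 without the scaling factors), with medians of -0.30 and -0.21. Slc7a1, the main carrier of cationic amino acids, had 12.3 ± 1.44 scaled TPM in HEL cells without Ikaros and 27.1 ± 0.92 in naive cells (-1.08 ± 0.09), and Slc7a5, the carrier of large neutral amino acids, fell by 1.08 ± 0.13. Atf4, the transcription factor of the amino acid response, fell by 0.74 ± 0.09. The mitochondrial folate enzyme gene Mthfd2 was an exception, at 28.9 ± 5.16 in HEL cells without Ikaros and 14.7 ± 2.2 in naive cells (0.92 ± 0.14), as was Qars, the glutaminyl-tRNA synthetase (1.23 ± 0.08).

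Genes of energy metabolism were divided. Glycolysis genes had 6 of 22 higher and 6 lower, shares near those of all genes (28.4% and 26.5%). Without the scaling factors they were 5 and 11. Gpi1, glucose phosphate isomerase, rose by 1.01 ± 0.06 and Aldoc, an aldolase, by 1.14 ± 0.19, while Slc2a1, the glucose transporter GLUT1, had 35.3 to 42.1 scaled TPM in HEL cells without Ikaros and 66.1 to 77.5 in naive cells (-0.89 ± 0.07). Oxidative phosphorylation had 22 of 40 higher and 2 lower, with a median of 0.24, but 13 higher and 11 lower and a median of -0.01 without the scaling factors. Cox7c, of respiratory complex IV, rose by 1.05 ± 0.23. The count was also 22 higher, with none lower, in HEL cells with intact Ikaros against naive cells. Proteasome subunits had 15 of 31 higher and none lower, but 6 higher and 8 lower without the scaling factors. Psmb1 was up by 0.73 ± 0.10 and Psmc6 by 0.70 ± 0.15, and in HEL cells with intact Ikaros 11 of the 31 were higher. The part of gene length in these lists was not tested.

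Genes for trafficking and adhesion were called lower more often than higher. Of 22 homing receptors and integrins, 10 fell, 1 rose and 11 were not called, with a median of -0.22, inside the middle range of all genes tested. S1pr1, the receptor that lets lymphocytes leave lymphoid tissue, had 61.3, 89, 107, 89.6 and 72.8 scaled TPM in HEL cells without Ikaros, against 188, 189 and 167 in naive cells (-1.13 ± 0.15, adjusted p = 0.000127). Klf2, the transcription factor that drives S1pr1, had 380, 425, 453, 590 and 359 in HEL cells without Ikaros, against 726, 874 and 915 in naive cells (-0.94 ± 0.15, adjusted p = 0.000368). Both genes were below the naive range in all 5 libraries, and neither was called in HEL cells with intact Ikaros against naive cells.

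Cxcr5, which guides B cells into follicles, fell by 0.88 ± 0.08. Cd55, a complement regulator, had 55.9 ± 8.15 scaled TPM in HEL cells without Ikaros and 147 ± 11.2 in naive cells (-1.39 ± 0.11), and Itgb7, the integrin subunit for gut homing, fell by 1.23 ± 0.12. Itgb1, the integrin beta 1 subunit, was the member that rose, with 42.9 to 66.9 in HEL cells without Ikaros, 18.3 to 21.9 in HEL cells with intact Ikaros and 17.2 to 25.1 in naive cells (1.22 ± 0.15 against naive cells, adjusted p = 7.42e-05). Between the HEL groups 5 members of the list were called higher and 10 lower.

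Markers of the B cell's later fates gave a mixed picture. Germinal centre genes had 7 of 12 lower and none higher, with a median of -0.43. Bcl6, the master factor of that fate, had 45.5 to 62 scaled TPM in HEL cells without Ikaros and 78.2 to 105 in naive cells (-0.73 ± 0.12). Mef2b, a partner of Bcl6, had 4.55, 3.4, 3.08, 1.73 and 3.85 in HEL cells without Ikaros, against 31.1, 18.5 and 9.25 in naive cells (-2.14 ± 0.32, adjusted p = 0.000304). The naive libraries varied widely, and none overlapped the other group. HEL cells with intact Ikaros had 8 of 14 of these genes lower and none higher. Plasma cell genes had 6 of 11 higher and 2 lower, or 4 and 5 without the scaling factors. Sdc1, the plasma cell antigen Cd138, had 11.8, 8.1, 8.23, 10.3 and 7.86 in HEL cells without Ikaros, against 0.302, 0.296 and 0.347 in naive cells (2.95 ± 0.13, adjusted p = 2.22e-07). The groups were far apart, and HEL cells with intact Ikaros had 4.96 to 7.53. Slamf7 rose by 1.96 ± 0.09, Cd38 by 0.75 ± 0.10 and Xbp1, the factor of the secretory programme, by 0.54 ± 0.07, while Fkbp11, a chaperone of secretory cells, fell by 1.87 ± 0.25. Xbp1 was called lower in HEL cells with intact Ikaros (-0.31 ± 0.08).

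Marginal zone and B1 markers also split, with 5 of 10 higher and 4 lower, or 3 and 4 without the scaling factors. Notch2, which drives the marginal zone fate, had 79.1 ± 8.25 scaled TPM in HEL cells without Ikaros and 169 ± 20.3 in naive cells (-1.09 ± 0.10), and Dtx1, a Notch target, fell by 1.13 ± 0.12. Spn, the B1 cell antigen Cd43, had 33 to 41.9 in HEL cells without Ikaros and 8.4 to 13.5 in naive cells (1.76 ± 0.13), and Bhlhe41, a transcription factor of B1 cells, rose by 1.63 ± 0.12. In bulk RNA of sorted cells, a different mix of cells and a different level per cell cannot be told apart.

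Cytokine and TNF family receptors had 8 of 23 higher and 6 lower, beside 28.4% and 26.5% of all genes, or 6 and 11 without the scaling factors. HEL cells with intact Ikaros had none higher and 9 lower of 22 against naive cells. Csf2rb, the shared subunit of the receptors for Il3, Il5 and Csf2, whose model overlaps another gene, had 24.7, 29.8, 21.9, 21.5 and 23 scaled TPM in HEL cells without Ikaros, against 10.2, 6.75 and 9.98 in naive cells (1.35 ± 0.14, adjusted p = 2.25e-05). Il9r, the receptor of Il9, had 138, 181, 162, 146 and 116 in HEL cells without Ikaros, against 80.7, 67 and 92.5 in naive cells (0.88 ± 0.14, adjusted p = 0.000396). Neither overlapped, and both were called lower in HEL cells with intact Ikaros against naive cells (-0.51 ± 0.15 and -0.68 ± 0.10). Of the feedback genes on cytokine signals, 6 of 14 rose and 3 fell, or 4 and 5 without the scaling factors. Socs1, an inhibitor of Jak kinases, rose by 1.51 ± 0.14 and Pim2 by 1.32 ± 0.11, whereas Pim3 fell by 0.87 ± 0.09 beside Pim1. Pim2 was not called between the HEL groups, with a difference of 0.00 ± 0.11.

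**Figure D4:**
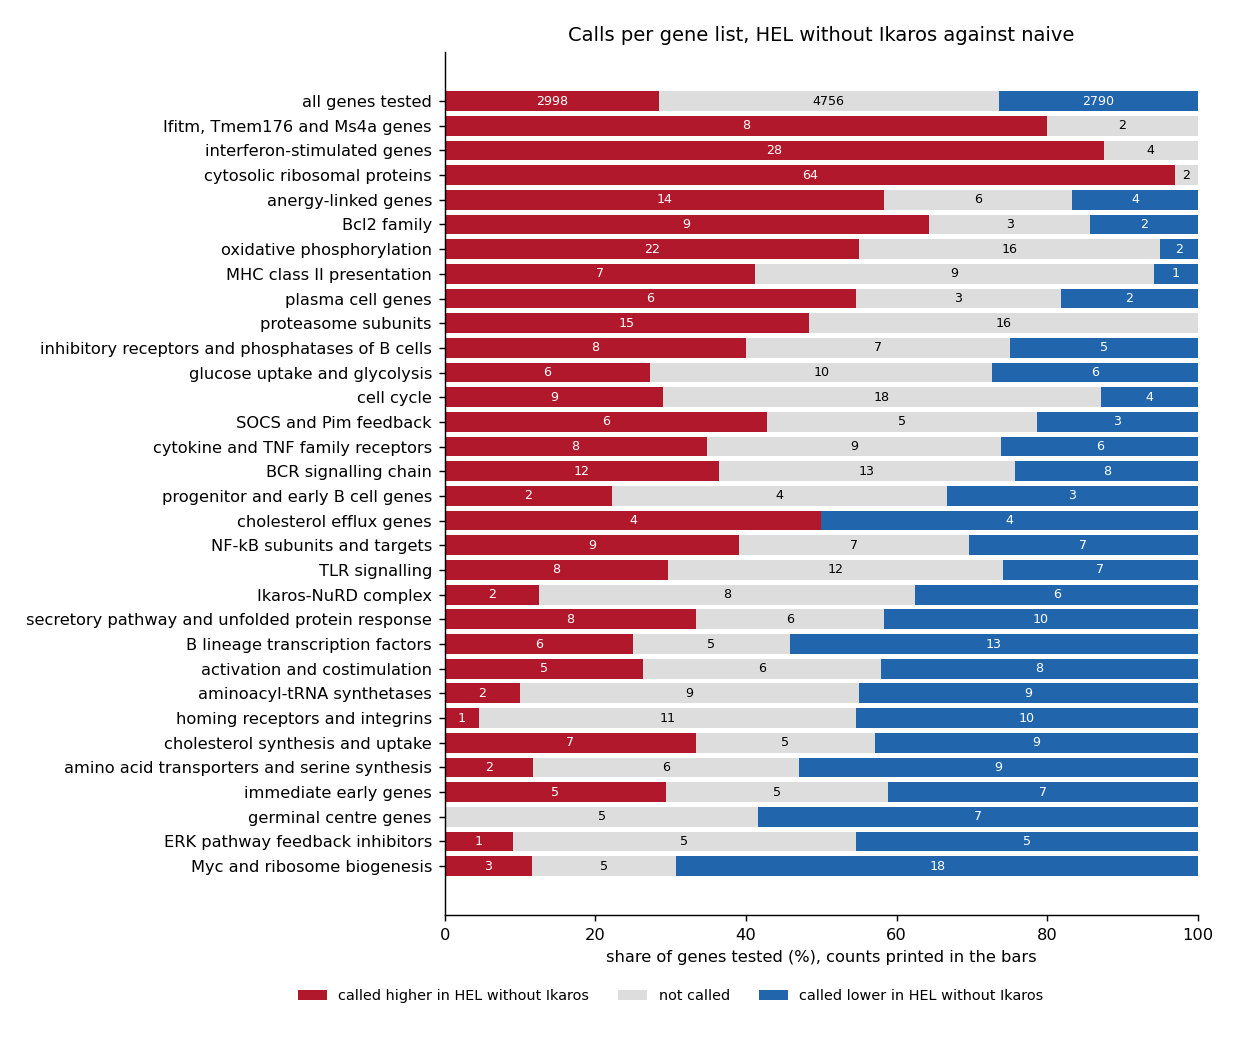
Share of tested genes called higher, not called and called lower in HEL cells without Ikaros against naive cells, for all genes tested and 31 pathway lists, with counts in the bars, ordered by the list median. Ribosomal protein, interferon-stimulated and Ifitm, Tmem176 and Ms4a genes have few or no members lower, and ribosome biogenesis genes have 18 of 26 lower.

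Markers of other cell types were read across the libraries because several raised genes are known from myeloid or T cells. All 11 neutrophil markers found, 11 of 14 T cell markers, among them Cd3e, Cd4 and Cd8a, and 10 of 11 NK cell markers stayed under 1 scaled TPM in all 8 libraries. Themis and Cd8b1 of the T cell list, and Ncr1, Gzma, Gzmb and Klra8 of the NK cell list, were at 0 throughout. The summed T cell markers were 78.6 to 119 in HEL cells without Ikaros and 18.5 to 21.1 in naive cells, with Lck the main part of it in HEL cells without Ikaros, while summed NK cell markers were 5.39 to 9.27 in HEL cells without Ikaros and 12.6 to 16.5 in naive cells. Erythroid and platelet markers summed to 0.933 to 5.52 in HEL cells without Ikaros and 1.85 to 4.5 in naive cells.

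Myeloid markers summed to 95.2 to 127 scaled TPM in HEL cells without Ikaros and 48.4 to 78.9 in naive cells, with 4 of 11 tested members higher and 4 lower. Cd68, a lysosomal protein of macrophages, had 22.7 to 31.2 in HEL cells without Ikaros and 3.79 to 4.58 in naive cells (2.41 ± 0.11), and Mpeg1, a pore-forming protein, rose by 2.69 ± 0.13. The complement genes C1qa, C1qb and C1qc of tissue macrophages fell, with means of 1.73, 1.76 and 1.96 in HEL cells without Ikaros and 7.56, 6.83 and 7.23 in naive cells. The macrophage markers Cd14, Fcgr1, Emr1, Lyz1 and Fcgr3 were under 1 in all 8 libraries. Dendritic cell markers summed to 212 to 309 in HEL cells without Ikaros and 152 to 186 in naive cells, with 4 of 5 tested members higher, and Itgax, Xcr1 and Clec9a were among 6 under 1 throughout. Siglech, the marker of plasmacytoid dendritic cells, had 1.57 to 3.06 in HEL cells without Ikaros and 0 to 0.0838 in naive cells (1.54 ± 0.16). The part of other cells in these differences was not tested.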

How the data were processed

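RNA-seq of sorted follicular B cells was used: 8 libraries for the main comparison and 5 of HEL cells with intact Ikaros beside them, and the 27 other samples of the series were not analysed here. The authors deposited TPM per gene, for 24732 genes in each library. Per the submitters' processing notes, the series used the mm9 build with Bowtie, deepTools 3.0.1, featureCounts 1.5.0, SAMtools 1.4 and TopHat 1.4.1, and what each did is not given in the sources used here, nor is strandedness. From the deposited TPM, whole reads were recovered within a tolerance of 0.01 for 18843 of 18843 genes above 0, which gave the depths. The authors' table marks 3539 gene models that overlap another, and values of named ones are called uncertain in the text.

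TPM were scaled by median-ratio factors over 11811 genes (0.8973 to 0.9861 in HEL cells without Ikaros, 0.9476 to 1.0407 in HEL cells with intact Ikaros and 1.0920 to 1.1628 in naive cells). A factor this different between groups sets the balance of higher and lower calls, so TPM without scaling were an alternative. Genes at 1 scaled TPM or more in at least 3 libraries (5 between the HEL groups) were tested on log2(scaled TPM + 1), pseudocount 1, with limma 3.58.1 in R 4.3.3 (mean-variance trend, moderated test, two-sided, adjusted by Benjamini and Hochberg over all genes tested). All adjusted p-values are from these fits. In simulated libraries the fit recovered 34 of 67 changes of 1.5-fold, 65 of 67 of 2-fold and 66 of 66 of 4-fold, and called 15 unchanged genes. The simulation changed far fewer genes than were called here and gave all genes the same spread. It therefore does not show the error rate in these data. Alternatives were other scaling, pseudocount, filter, a fit over 13 libraries, voom on recovered reads (with which the calls can be compared on a count basis, 5843 genes), terms for sex, male libraries alone, and each library left out in turn. Over 23 pairs of replicates, chi-square per degree of freedom on genes with at least 10 reads was 7.49 to 26.9, so no pair agreed within sampling noise.

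The 39 gene lists and the genes named were chosen with earlier results of these data known. Genes named were Ikzf1, Ikzf3, the 15 most raised and 15 most lowered called genes with a mean of at least 5 scaled TPM and no overlap between groups, up to 5 such members per list (or up to 2 of the highest level where none passed, and any member of a short list), and the 6 largest among genes called in opposite directions, less a few that are not reported here. Motifs were counted in RefSeq promoters of GRCm38.p6, which were matched by symbol for 7874 of 10544 tested genes. No file coordinates were used.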

Additional observations from a re-analysis of the deposited data

Results flagged for a closer look

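In 152 sets of 5 libraries, 1 per named gene and HEL group where values were used, 12 held a library far from the other four. Chance flags about 1 in 20 such sets. Within HEL cells without Ikaros, replicate 5 was high for Ndrg1 (13.4 scaled TPM, others 6.87 to 8.33), Srm (30.1, others 19.1 to 22), Slamf7 (41.2, others 32.7 to 33.9) and Id2 (10.2, others 6.03 to 7.01), and low for Bcl10 (145, others 162 to 168) and Atf4 (107, others 131 to 140). This library was also the shallowest of its group. Replicate 2 was high for Ptpn22 (14.1, others 7.27 to 8.65) and Gpi1 (583, others 515 to 520). Lag3 was high in replicate 1 (15.5, others 7.48 to 9.19), Ccdc88b in replicate 3 (3.27, others 2.35 to 2.6), and Irak3 was low in replicate 4 (19.9, others 21.3 to 21.8). Each of these genes kept its call against naive cells without the library named. In HEL cells with intact Ikaros, replicate 5 was high for Pim1 (37.7, others 24.9 to 27.9).

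Of the 117 genes for which the HEL groups were called on opposite sides of the naive level, 11 are named here. In all 11 the groups differed from each other in the direct limma fit, HEL without Ikaros minus HEL with intact Ikaros. These genes were selected for opposite calls in the same HEL libraries, so that fit adds no independent support. The differences were -1.58 for Ikzf1 (adjusted p = 1.28e-08), -4.13 for Apoe (adjusted p = 5.84e-09) and -1.32 for Dok3 (adjusted p = 1.15e-08). They were 3.64 for Dkkl1 (adjusted p = 2.3e-09), 4.21 for Eng (adjusted p = 1.52e-10), 2.85 for Sirpa (adjusted p = 1.54e-09), 2.57 for Zfp467 (adjusted p = 1.54e-09) and 2.61 for H1f0 (adjusted p = 2.14e-07). Xbp1 differed by 0.85 (adjusted p = 3.63e-06), Csf2rb by 1.85 (adjusted p = 1.23e-07) and Il9r by 1.56 (adjusted p = 2.29e-07).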

How the results depend on the processing

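Calls between HEL cells without Ikaros and naive cells numbered 5788, and 4186 to 6761 under the settings that leave out no single library. Without scaling they were 1619 higher and 5142 lower, with all genes shifted by -0.23, and for HEL with intact Ikaros 1036 higher and 3979 lower. Male libraries alone gave 2757 calls (1310 lower) for HEL with intact Ikaros and 1328 (744 higher, 584 lower) between the HEL groups, where fewer libraries enter. With a minimum of 5 scaled TPM, 9 anergy-linked genes were higher of 19 tested, with a median of 0.14. Interferon-stimulated genes called higher were 22 in 1 fit over 13 libraries and 24 with the sex term, beside 28. With 50 bases after the start added, the Ikaros core was in 28% of genes called higher, 25.3% called lower and 25.9% of all.

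With 1 library left out, calls against naive cells ran from 4806 to 5811, from 3156 to 4333 for HEL with intact Ikaros and from 3048 to 3499 between the HEL groups. Ikzf1 ran from -1.15 to -0.83. Higher ribosomal protein genes ran from 61 to 64, interferon-stimulated from 27 to 30 and anergy-linked from 13 to 14. Lower ribosome biogenesis genes ran from 18 to 19 and homing genes from 9 to 10.

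Of 140 named genes 136 were called, and 133 of them under every setting in which they were tested. With a minimum of 5 scaled TPM, only 130 of the 139 named genes other than Ikzf1 were tested. H1f0 and Fcer2a lost the call when single libraries were left out, and Dusp1 with male libraries alone (adjusted p = 0.0664). Signs turned in genes not called otherwise: Ikzf3 to 0.05 with a term for sex and in male libraries, and Cd22 to -0.15 without scaling, where it was called lower (adjusted p = 0.0436). Without scaling Ikzf3, Cd79a (adjusted p = 0.000792) and IGHM (adjusted p = 0.00706) were called lower too, and Cd79a also without naive replicate 1 (adjusted p = 0.0441). The cause of these shifts was not tested.

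The planned term for sex gave 3559 calls between the HEL groups. It could not be fitted against naive cells, all male, so sex was estimated within the HEL groups (4541 calls), a setting added after the data were seen, as were the male libraries alone. No paired analysis was possible because the labels give library numbers and no replicate numbers shared between groups. At these depths a gene near 1 TPM is read from few fragments, and its fold depends on the pseudocount.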

Other observations

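Antigen presentation and lysosomal genes had 7 of 17 members higher and 1 lower in HEL cells without Ikaros than in naive cells, or 4 and 4 without the scaling factors, and 10 higher and none lower than in HEL cells with intact Ikaros. Ctsb, a lysosomal protease whose gene model overlaps another, had 288, 267, 250, 249 and 257 scaled TPM in HEL cells without Ikaros, against 74.2, 67 and 73.1 in naive cells (1.86 ± 0.06, adjusted p = 4.32e-08). H2-Oa, which modulates peptide loading and also overlaps another model, rose by 0.88 ± 0.09. Ifi30, the lysosomal thiol reductase, was the member that fell, at 913 ± 26.6 in HEL cells without Ikaros and 1570 ± 153 in naive cells (-0.78 ± 0.07), and HEL cells with intact Ikaros were lower still at 429 to 632.

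Genes of the cholesterol pathway moved both ways. Of 21 genes for synthesis and uptake, 7 rose and 9 fell, or 5 and 12 without the scaling factors. Mvk, Pmvk and Mvd, successive enzymes that turn mevalonate into the isoprenoid precursor, rose by 1.00 ± 0.14, 1.09 ± 0.08 and 0.85 ± 0.13. Of 8 efflux genes 4 rose and 4 fell (2 and 4 without the scaling factors), and Abca1, the main exporter, fell by 0.94 ± 0.13 with Apoe.

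Of 24 secretory and unfolded protein response genes, 8 rose and 10 fell, or 4 and 14 without the scaling factors. Ssr4, of the complex beside the translocon, had 720 ± 151 scaled TPM in HEL cells without Ikaros and 202 ± 19.5 in naive cells (1.81 ± 0.16), while Calr, the chaperone calreticulin, fell by 0.66 ± 0.09. Cell cycle genes had 9 of 31 higher and 4 lower with a median of 0.11, but 6 higher and 10 lower without the scaling factors. Ccnd2, the cyclin that B cells use to leave rest, had 62 to 79.7 in HEL cells without Ikaros and 27.7 to 33.2 in naive cells (1.12 ± 0.09), Aurkb rose by 1.05 ± 0.17 and Mcm7 by 0.59 ± 0.10. Mki67, a proliferation marker, was not called.

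Bcl2 family genes had 9 of 14 higher and 2 lower (6 and 3 without the scaling factors), with members of both functions among them. Bmf, which promotes cell death, had 69.9, 74.8, 73.3, 80.8 and 75.1 scaled TPM in HEL cells without Ikaros, against 18.2, 29.7 and 35.2 in naive cells (1.45 ± 0.16, adjusted p = 4.24e-05). Bcl2l11, the death gene Bim, rose by 0.69 ± 0.09 and Bid fell by 0.97 ± 0.08. Of 19 activation and costimulation genes 5 rose and 8 fell.

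B lineage transcription factors had 13 of 24 lower, the deleted Ikzf1 included, and 6 higher (18 and 1 without the scaling factors). Id2 was among the lowered, with 6.03 to 10.2 scaled TPM in HEL cells without Ikaros and 14.4 to 19 in naive cells (-1.13 ± 0.15). Of 16 genes of the Ikaros and NuRD complex 6 fell, Ikzf1 included, and 2 rose, while without the scaling factors 12 fell and none rose. Of 9 tested progenitor genes 2 rose, both at least 2-fold, and 3 fell, beside 28.4% and 26.5% of all genes. Between the HEL groups 6 of 7 were higher without Ikaros and 1 lower. With intact Ikaros, 5 of 7 were lower than in naive cells and none higher. Vpreb3, a chaperone of the early receptor, had 338 ± 66.4 in HEL cells without Ikaros and 714 ± 72.5 in naive cells (-1.09 ± 0.15), and Lmo2 fell by 0.66 ± 0.07. Among the follicular B cell markers, IGHM, the heavy chain constant region, had 13388 ± 628 in HEL cells without Ikaros and 16748 ± 4686 in naive cells and was not called (-0.28 ± 0.16, adjusted p = 0.166). It was called without naive replicate 3 (-0.53, adjusted p = 0.00235), whose level was 11507 against 20535 and 18202 in the other two.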
